A study of Mus musculus with 9 samples.

Results

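ETS factors are the transcription factors that share the ETS domain, a winged helix-turn-helix fold that contacts DNA at a GGAA core. This account follows 10 of them, Ets1, Ets2, Elf1, Elf2, Elf4, Fli1, Gabpa, Elk3, Elk4 and Etv6, in Tregs, the Foxp3-expressing regulatory T cells, which had been sorted from the spleens of mice and profiled by RNA sequencing. The 10 genes were chosen from measured values of these same libraries, with their differences between the groups known, so their differences are given as a description and support no test. The lists of other genes used below were also drawn up with earlier results of these data known. Their counts, shares and p-values are likewise a description. All 10 had a row among the 23420 rows of each file, and all 10 were among the 12219 genes that passed the filter on low counts. The study compared 3 groups of 3 libraries: Tregs of the genotype labelled ST2KO and 2 wild-type groups divided by their ST2 level, called ST2-high and ST2-low here. Il1rl1 encodes ST2, through which cells sense interleukin-33, and the series title names the ischemic kidney as the setting. The sources used here do not give the sorting gates, the strain, the age, any treatment of the animals or the knocked-out allele. The labels do not say whether the 3 libraries of a group came from separate animals, so every p-value below measures the spread between these libraries, which may be technical.

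ETS factors fall into subfamilies that differ in what surrounds the ETS domain. Ets1, Ets2, Fli1, Gabpa and Etv6 carry a pointed domain, used for protein contacts, and Ets1 and Ets2 are phosphorylated next to it by MAP kinases. Elf1, Elf2 and Elf4 form a group of lymphoid and myeloid regulators, Elk3 and Elk4 are ternary complex factors that sit on serum response elements together with Srf, and Gabpa needs a beta subunit (Gabpb1 or Gabpb2) to activate transcription. In mouse T cells Ets1 is required for normal Treg numbers and binds the Foxp3 locus, Elf4 restrains T cell proliferation, and Gabpa is required for T cell development and expansion.

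Total counts ranged from 11659659 to 43406680 per library, and the 10 genes together took 0.350% to 0.480% of the counts. Foxp3, the lineage factor of Tregs, had 437, 410.2 and 443 CPM (counts scaled to the size of the library with TMM factors) in the ST2KO libraries, 549.8, 532 and 622 CPM in the ST2-high libraries, and 445, 462 and 478 CPM in the ST2-low libraries. Il1rl1 had 57.7, 61.4 and 83.6 CPM in ST2KO, 516, 421 and 547 CPM in ST2-high, and 2.16, 3.59 and 2.11 CPM in ST2-low. The ST2KO libraries thus lay below ST2-high and above ST2-low, and since the counts cover the whole gene and not the deleted part, this does not check the genotype. ST2-high replicate 3 stood apart from its group, with a chi-square per gene of 17.3 and 20.6 against the other ST2-high libraries and 4.66 to 8.50 for the other pairs within a group. That measure includes the ribosomal precursor Rn45s, which took 16.7% of counts in this library, 13.0% in ST2-high replicate 1 and 12.1% in ST2-high replicate 2. The part of Rn45s in the measure was not separated. The defining T cell transcripts were present in all groups, with the summed level of 6 T cell genes (Cd3e, Cd3d, Cd3g, Cd4, Cd5, Lck) at 1973 to 2033 CPM in ST2KO, 2065 to 2099 CPM in ST2-high and 1891 to 1934 CPM in ST2-low.

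Promoter sequences are shown for 4 of the genes: Ets2 and Elf1, which differed most between ST2KO and the wild-type groups, and Elf4 and Elk4, which lay in opposite order in the 2 wild-type groups. They run from 250 bases before to 50 bases after an annotated start, 5′ to 3′ on the gene's strand, from RefSeq on GRCm38.p6, with capitals at each GGAA core (TTCC where it lies on the other strand) and at the consensus CCGGAAGT. The windows are chr16:95702157-95702456 (plus strand) for Ets2, chr14:79480944-79481243 (plus strand) for Elf1, chrX:48463083-48463382 (minus strand) for Elf4 and chr1:132007370-132007669 (plus strand) for Elk4.
Ets2: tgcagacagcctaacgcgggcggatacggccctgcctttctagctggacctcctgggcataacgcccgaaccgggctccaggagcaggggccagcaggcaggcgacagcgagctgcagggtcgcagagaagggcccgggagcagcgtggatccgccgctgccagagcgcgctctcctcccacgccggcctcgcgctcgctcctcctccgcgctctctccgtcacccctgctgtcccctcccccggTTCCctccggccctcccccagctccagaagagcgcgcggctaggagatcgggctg
Elf1: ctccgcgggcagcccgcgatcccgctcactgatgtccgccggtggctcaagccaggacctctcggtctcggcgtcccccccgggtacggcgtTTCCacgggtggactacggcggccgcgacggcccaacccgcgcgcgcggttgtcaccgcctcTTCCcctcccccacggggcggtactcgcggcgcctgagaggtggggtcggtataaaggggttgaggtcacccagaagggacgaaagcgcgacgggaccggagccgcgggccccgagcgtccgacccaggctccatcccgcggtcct
Elf4: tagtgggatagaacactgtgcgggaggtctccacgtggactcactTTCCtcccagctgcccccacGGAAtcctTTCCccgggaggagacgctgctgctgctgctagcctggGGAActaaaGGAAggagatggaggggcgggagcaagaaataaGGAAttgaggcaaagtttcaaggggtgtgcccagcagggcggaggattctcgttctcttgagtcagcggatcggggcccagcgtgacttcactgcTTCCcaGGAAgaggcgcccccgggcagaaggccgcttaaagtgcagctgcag
Elk4: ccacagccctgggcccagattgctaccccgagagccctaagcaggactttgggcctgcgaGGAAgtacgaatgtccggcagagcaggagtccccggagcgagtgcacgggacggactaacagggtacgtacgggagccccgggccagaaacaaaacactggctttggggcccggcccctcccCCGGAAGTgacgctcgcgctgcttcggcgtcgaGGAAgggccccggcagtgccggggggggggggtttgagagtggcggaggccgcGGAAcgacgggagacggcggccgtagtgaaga
Both strands were searched for each motif, and a CCGGAAGT match also counts as a GGAA match. The GGAA core occurred 1 time in the Ets2 window, 2 times in the Elf1 window, 8 times in the Elf4 window and 4 times in the Elk4 window. CCGGAAGT was present 1 time, in the Elk4 window at position -68 from the start, and in no other of the 13 windows of the 8 genes that had an entry (Ets2, Elf1, Elf2, Elf4, Gabpa, Elk3, Elk4 and Etv6), of which 2 Elk4 windows overlap each other. Over all 32851 promoter windows of the same length, 96% held GGAA and 3.89% held CCGGAAGT. The pattern TGANTCA, which is wider than the AP-1 element, was in the Elf4 window shown and in a second window each of Elf1 and Elf2. It was in 7.81% of all windows. The Elf4 and Elf1 matches read TGAGTCA and TGACTCA, the AP-1 consensus, and the Elf2 match reads TGATTCA, which is outside it. TATAAA was in 1 window of Elf2 and in both windows of Elf1, against 13.6%. The CArG box bound by Srf was in none of the 13, against 1.63%.

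Ets2, a pointed-domain factor that responds to MAP kinase signals, showed the widest gap of the 10 genes between ST2KO and wild-type Tregs. Its level was 102, 97.8 and 92.6 CPM in the ST2KO libraries, 387, 415 and 401 CPM in the ST2-high libraries, and 399.6, 398 and 411 CPM in the ST2-low libraries. All 3 ST2KO libraries lay below every wild-type library, and the 2 wild-type groups overlapped. The fitted level was 4.11-fold lower in ST2KO than in ST2-high (log2 fold change -2.04 ± 0.05, SE) and 4.13-fold lower than in ST2-low, while the difference between ST2-high and ST2-low was -0.01 ± 0.05 on the log2 scale. These comparisons share libraries, the ST2KO ones for the first pair, so they are not independent of each other.

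Ets1, the founding member of the family and its most abundant transcript here, differed in the same direction by far less. It had 2161, 2138 and 1927 CPM in ST2KO, 2543, 2581 and 2525 CPM in ST2-high, and 2611, 2533 and 2561 CPM in ST2-low. The ST2KO libraries again lay below all 6 wild-type libraries, with replicate 3 the lowest, and the wild-type groups overlapped. The log2 fold change was -0.30 ± 0.05 in ST2KO against ST2-high and -0.31 ± 0.05 in ST2KO against ST2-low. Within a library, Ets2 reads per Ets1 read averaged 0.0469 ± 0.00115 in ST2KO, 0.157 ± 0.00437 in ST2-high and 0.157 ± 0.00371 in ST2-low (SD, n = 3 each).

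Fli1, a regulator of blood cell and megakaryocyte development, took 3 separate levels. It had 168, 166 and 158 CPM in ST2KO, 183, 185 and 184 CPM in ST2-high, and 148, 154 and 144 CPM in ST2-low. No group overlapped another, with ST2KO between the 2 wild-type groups. The log2 fold change was -0.16 ± 0.05 in ST2KO against ST2-high, 0.15 ± 0.05 in ST2KO against ST2-low and 0.31 ± 0.05 in ST2-high against ST2-low. The call against ST2-low was lost in 5 of 18 alternative settings, and the call against ST2-high was lost with upper-quartile scaling.

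**Figure D1:**
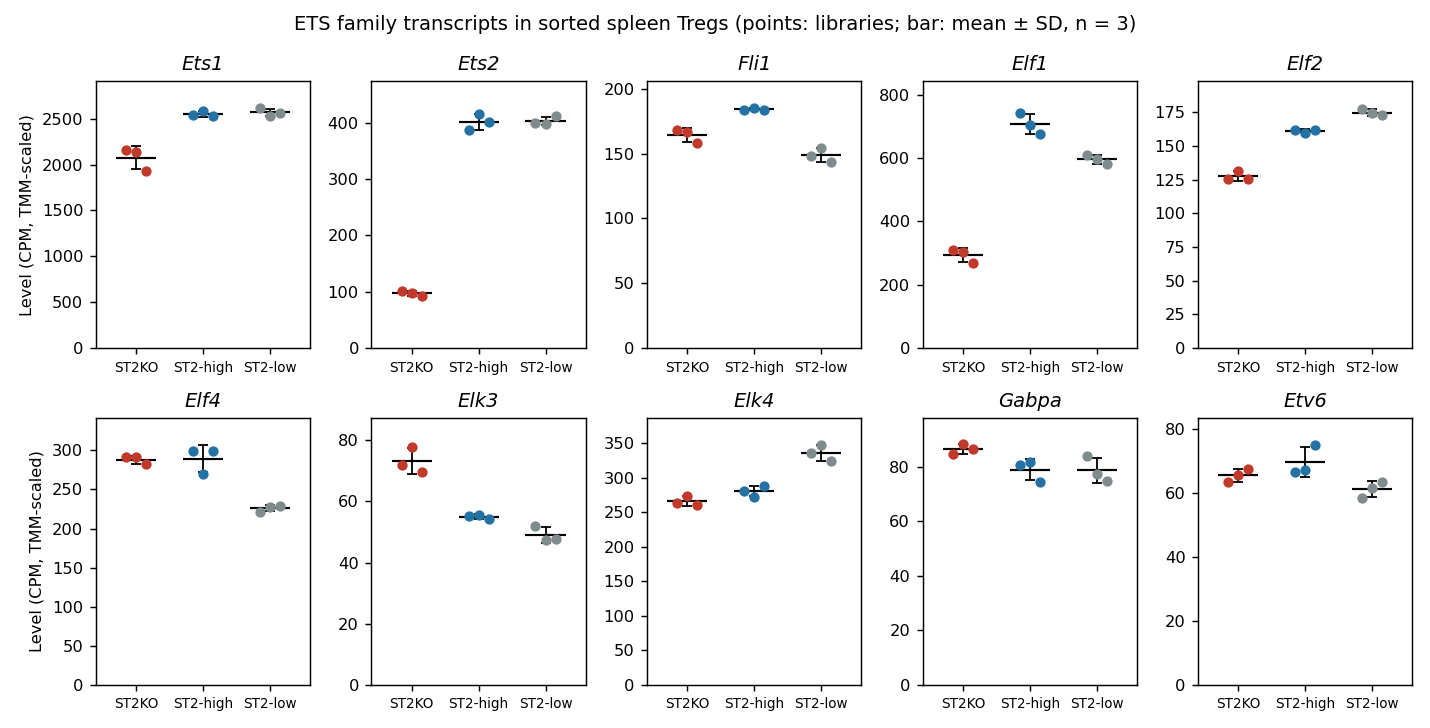
Level of each of the 10 ETS transcripts in CPM (vertical axis, starting at 0) in the ST2KO, ST2-high and ST2-low libraries; points are libraries, bars mean ± SD with n = 3. The ST2KO points of Ets2 and Elf1 lie far below both wild-type groups, and those of Elk3 lie above them. The ST2-high and ST2-low points do not overlap for 7 of the 10 genes, among them Elf4, Fli1, Elk4 and Elf1.

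Elf1, an Elf factor abundant in lymphocytes, was the second gene with a wide gap. Its level was 310.1, 303 and 267 CPM in ST2KO, 743, 703 and 677 CPM in ST2-high, and 609.7, 598 and 581 CPM in ST2-low. No 2 groups overlapped, and the order was ST2KO below ST2-low below ST2-high. Elf1 was 2.41-fold lower in ST2KO than in ST2-high (log2 fold change -1.27 ± 0.06) and 2.03-fold lower than in ST2-low (-1.02 ± 0.06), and ST2-high exceeded ST2-low (0.25 ± 0.06).

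Elf2, a close relative of Elf1, was lower in ST2KO by a smaller step. Its levels were 126, 132 and 126 CPM in ST2KO, 162, 160.0 and 162 CPM in ST2-high, and 178, 174 and 173 CPM in ST2-low. The groups did not overlap, but the wild-type groups stood in the opposite order to Elf1. The log2 fold change was -0.34 ± 0.05 in ST2KO against ST2-high and -0.45 ± 0.05 in ST2KO against ST2-low. ST2-high against ST2-low gave -0.11 ± 0.05, which did not pass the threshold of the fit but passed it in 3 of 18 alternatives.

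Elf4, the member of the Elf group linked to quiescence of mouse T cells, did not follow Elf1 and Elf2. It had 291, 291 and 282 CPM in ST2KO, 299, 269 and 299 CPM in ST2-high, and 221, 228 and 229 CPM in ST2-low. ST2KO and ST2-high overlapped, and both lay above ST2-low. The log2 fold change was -0.00 ± 0.05 in ST2KO against ST2-high, 0.35 ± 0.05 in ST2KO against ST2-low and 0.36 ± 0.05 in ST2-high against ST2-low.

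The balance within the Elf group therefore differed between ST2KO and wild-type libraries. Elf4 reads per Elf1 read were 0.938, 0.962 and 1.06 in ST2KO, 0.403, 0.383 and 0.441 in ST2-high, and 0.363, 0.381 and 0.394 in ST2-low. In ST2KO the 2 transcripts had nearly the same number of reads, and in both wild-type groups Elf1 had more. Elf2 reads per Elf1 read averaged 0.437 ± 0.0324 in ST2KO, 0.228 ± 0.0106 in ST2-high and 0.293 ± 0.00338 in ST2-low (SD, n = 3 each), with no overlap between groups. These ratios are taken within a library and do not depend on its scaling.

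Elk3 and Elk4, the ternary complex factors that dock on Srf, differed in opposite directions between ST2KO and ST2-low. Elk3, which represses serum response genes until it is phosphorylated, had 71.8, 77.9 and 69.6 CPM in ST2KO, 55.2, 55.7 and 54.3 CPM in ST2-high, and 52.0, 47.4 and 47.6 CPM in ST2-low. No group of Elk3 values overlapped another, with ST2KO the highest. Elk3 was the only one of the 10 genes that passed the threshold as higher in ST2KO than in ST2-high, apart from Gabpa in 4 of 18 alternatives. It was 1.33-fold higher in ST2KO than in ST2-high (log2 fold change 0.41 ± 0.06) and 1.49-fold higher in ST2KO than in ST2-low (0.58 ± 0.06). Elk4, which acts in positive selection of mouse thymocytes, had 264, 274 and 261 CPM in ST2KO, 282, 273 and 288 CPM in ST2-high, and 336, 348 and 324 CPM in ST2-low. Its ST2KO and ST2-high libraries overlapped and both groups lay below ST2-low, with log2 fold changes of -0.33 ± 0.05 in ST2KO against ST2-low and -0.26 ± 0.05 in ST2-high against ST2-low. Elk3 reads per Elk4 read averaged 0.274 ± 0.00876 in ST2KO, 0.196 ± 0.00766 in ST2-high and 0.146 ± 0.00931 in ST2-low (SD, n = 3 each), and the 3 groups did not overlap. Annotated Elk3 exons share 316 bases with exons of Cdk17 on the opposite strand, and Cdk17 averaged 247 ± 5.24 CPM in ST2KO, 229 ± 8.40 CPM in ST2-high and 229 ± 15.8 CPM in ST2-low. Elf1 shares 327 exon bases with Wbp4, Elf2 371 with 4930577N17Rik and Gabpa 397 with Atp5j, also on opposite strands, and the highest group means of these partners were 25.0 CPM for Wbp4, 2.54 CPM for 4930577N17Rik and 24.7 CPM for Atp5j. Since the strand setting of the counting is not given, reads of the shared bases cannot be told apart.

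Gabpa, the DNA-binding subunit of GABP, varied little between the groups, and its beta partners varied more. Gabpa had 84.7, 88.4 and 86.7 CPM in ST2KO, 80.7, 81.9 and 74.5 CPM in ST2-high, and 83.9, 77.5 and 74.8 CPM in ST2-low. The ST2KO libraries lay just above the wild-type ones, with log2 fold changes of 0.13 ± 0.06 against ST2-high and 0.14 ± 0.06 against ST2-low. Only the second passed the threshold, and it was lost in 12 of 18 alternatives. Gabpb1, the beta subunit that supplies the activation domain, had 60.5, 63.5 and 61.5 CPM in ST2KO, 205, 199 and 207 CPM in ST2-high, and 160.3, 156 and 149 CPM in ST2-low. It fell 3.30-fold in ST2KO against ST2-high (quasi-likelihood test of edgeR, p adjusted by Benjamini-Hochberg over all tested genes, adjusted p = 2.78e-22) and 2.51-fold against ST2-low (edgeR, adjusted p = 2.33e-19), and ST2-high exceeded ST2-low 1.31-fold (edgeR, adjusted p = 3.08e-07). Gabpb2, the alternative beta subunit, went the other way, with 246, 258 and 239.9 CPM in ST2KO, 149, 149 and 165 CPM in ST2-high, and 152, 148 and 142 CPM in ST2-low. It rose 1.61-fold in ST2KO against ST2-high (edgeR, adjusted p = 1.81e-12) and 1.68-fold against ST2-low (edgeR, adjusted p = 2.57e-13), and ST2-high and ST2-low overlapped. Gabpa reads per Gabpb1 read were 1.40, 1.39 and 1.41 in ST2KO, 0.393, 0.412 and 0.360 in ST2-high, and 0.523, 0.497 and 0.503 in ST2-low. The alpha subunit thus had more reads than Gabpb1 in ST2KO and fewer in the wild-type groups. Gabpb2 had more reads than Gabpa in every library, and these reads were not scaled by gene length.

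Etv6, a repressor needed by blood stem cells and known from leukaemia fusions, also differed little between the groups. It had 63.4, 65.5 and 67.5 CPM in ST2KO, 66.7, 67.2 and 75.1 CPM in ST2-high, and 58.5, 61.5 and 63.4 CPM in ST2-low. ST2KO overlapped both wild-type groups. ST2-high stood above ST2-low by 0.18 ± 0.06 on the log2 scale, a call that was lost in 6 of 18 alternatives, among them the one without ST2-high replicate 3, whose 75.1 CPM was the highest value.

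**Figure D2:**
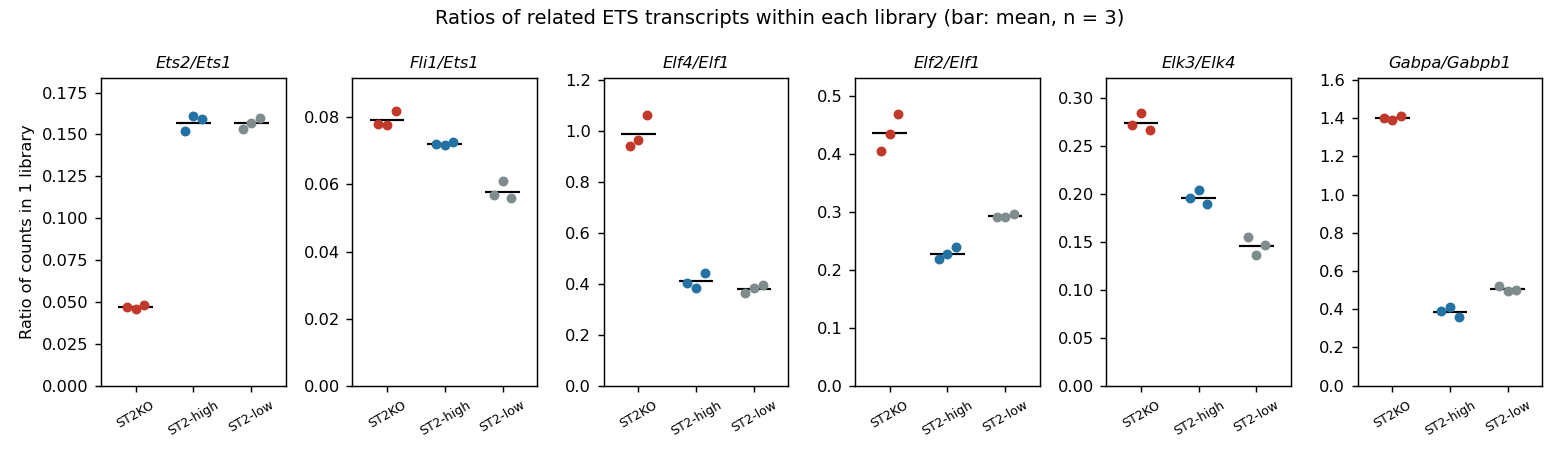
Ratio of read counts of related transcripts within each library (vertical axis, starting at 0) for ST2KO, ST2-high and ST2-low; points are libraries, bars the mean of 3. Elf4/Elf1 lies near 1 in ST2KO and near 0.4 in both wild-type groups, Gabpa/Gabpb1 lies at 1.39 to 1.41 in ST2KO and at 0.360 to 0.523 in the wild-type groups, and Ets2/Ets1 is lower in ST2KO.

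Counted together, 6 of the 10 genes passed the threshold in ST2KO against ST2-high, 1 higher (Elk3) and 5 lower (Ets1, Ets2, Elf1, Elf2 and Fli1). Over all tested genes 64.5% passed in that comparison, 31.9% higher and 32.6% lower. In ST2KO against ST2-low 9 of 10 passed, 4 higher (Elf4, Fli1, Gabpa and Elk3) and 5 lower (Ets1, Ets2, Elf1, Elf2 and Elk4), where 62.3% of all genes passed, 33% higher and 29.3% lower. In ST2-high against ST2-low 5 of 10 passed, 4 higher (Elf1, Elf4, Fli1 and Etv6) and 1 lower (Elk4), where 26.1% of all genes passed, 15.3% higher and 10.8% lower. Levels did not overlap for 7 of 10 genes in ST2KO against ST2-high, 9 in ST2KO against ST2-low and 7 in ST2-high against ST2-low, against 66.8%, 67.2% and 38.1% of all tested genes. The median log2 fold change of the 10 was -0.13 in ST2KO against ST2-high (0.02 over all tested genes), -0.11 in ST2KO against ST2-low (0.05) and 0.09 in ST2-high against ST2-low (-0.00). Without ST2-high replicate 3, 6 of the 10 passed in ST2KO against ST2-high, 8 in ST2KO against ST2-low and 4 in ST2-high against ST2-low. The split of the calls depended on the scaling: with upper-quartile factors 2 were higher and 4 lower in ST2KO against ST2-high, and with the size factors of DESeq2 2 were higher and 5 lower in ST2KO against ST2-low and 3 higher and 2 lower in ST2-high against ST2-low. The split over all tested genes moved too. With upper-quartile factors it went from 3892 higher and 3984 lower to 4582 and 3443 in ST2KO against ST2-high. With the size factors of DESeq2 it went from 4030 and 3577 to 3729 and 3829 in ST2KO against ST2-low. In ST2-high against ST2-low it went from 1872 and 1317 to 1691 and 1612. Since the 10 genes were picked with their differences known, nothing is read from their counts.

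**Figure D3:**
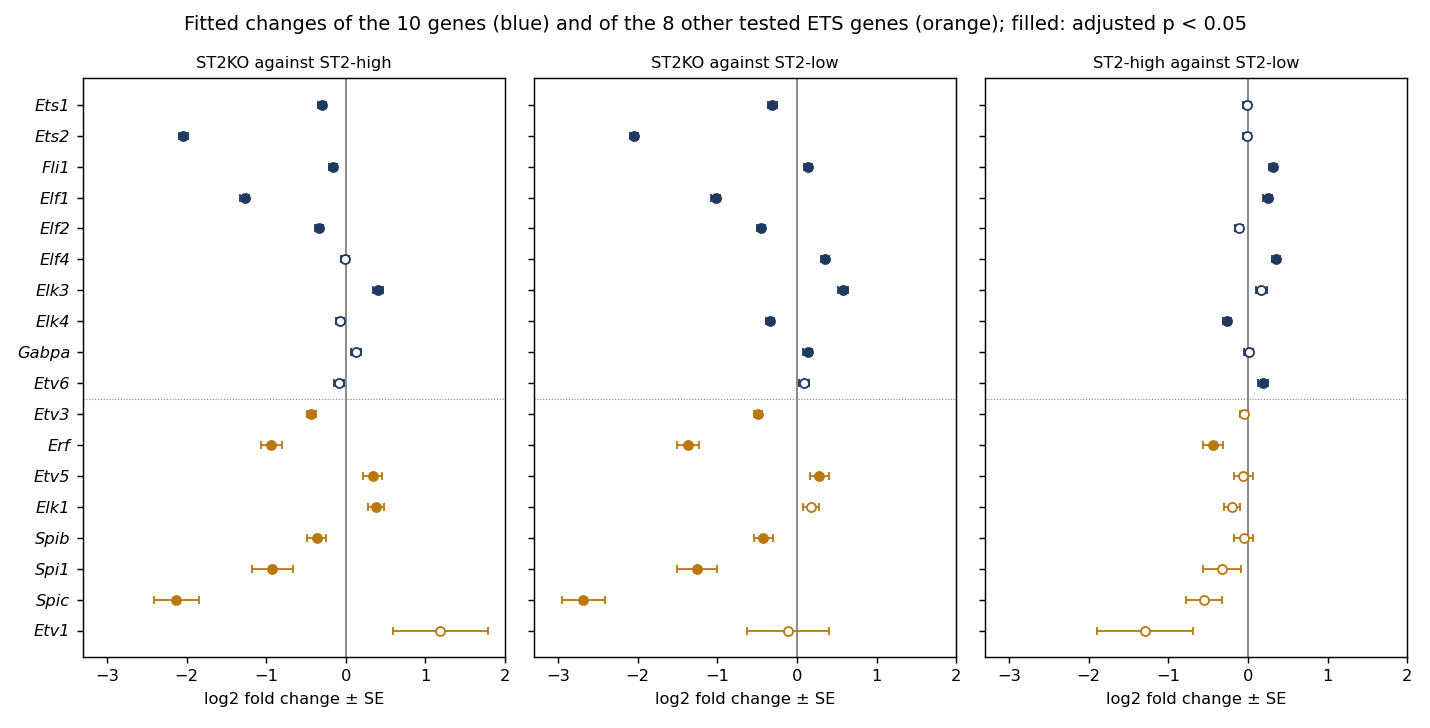
Fitted log2 fold changes ± SE (horizontal axis) of the 10 genes (blue) and of the 8 other tested ETS genes (orange) in ST2KO against ST2-high, ST2KO against ST2-low and ST2-high against ST2-low; filled points passed an adjusted p of 0.05 in edgeR. Ets2 and Elf1 lie near -2.04 and between -1.27 and -1.02 in the ST2KO comparisons, while in ST2-high against ST2-low all 10 genes lie between -0.26 and 0.36.

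To compare the genes with each other, CPM was divided by the annotated exon length in kilobases (GENCODE, GRCm38). On this scale Ets1 was the most abundant ETS transcript in every group, at 244.8 ± 15.2 CPM per kb in ST2KO, 301 ± 3.37 CPM per kb in ST2-high and 303 ± 4.67 CPM per kb in ST2-low (SD, n = 3 each). In ST2-high the next were Elf1 at 105 ± 4.92, Ets2 at 69.4 ± 2.36, Fli1 at 52.8 ± 0.252, Elf4 at 47.0 ± 2.81 and Elk4 at 43.8 ± 1.16 CPM per kb, of which Elf4 and Elk4 differed by little more than the SD of Elf4. ST2-low kept Elf1 (88.5 ± 2.14) and Ets2 (69.7 ± 1.23) next after Ets1, followed by Elk4 (52.4 ± 1.80), Fli1 (42.6 ± 1.54) and Elf4 (36.8 ± 0.670). In ST2KO the next after Ets1 were Fli1 (47.1 ± 1.58), Elf4 (46.9 ± 0.809), Elf1 (43.5 ± 3.40) and Elk4 (41.6 ± 1.08). Steps among these were smaller than the larger SD of each pair of neighbours, so their order is not settled. Ets2 (16.8 ± 0.768) was followed by Etv3 (16.4 ± 0.437), Elk3 (16.1 ± 0.935) and Gabpa (15.2 ± 0.329) in ST2KO, again with steps below the larger SD of each pair. Elf2, Gabpa, Elk3 and Etv6 were low in all groups. Group means of Elf2 lay between 13.4 and 18.3 and those of Gabpa between 13.8 and 15.2 CPM per kb. Elk3 lay between 10.8 and 16.1 and Etv6 between 10.2 and 11.7 CPM per kb.

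The summed ETS transcript pool was smaller in the ST2KO libraries, though single genes differed in both directions. Over the 10 genes and the 16 other ETS genes with a row, the sum was 532 ± 23.3 CPM per kb in ST2KO, 722 ± 3.59 CPM per kb in ST2-high and 702 ± 4.45 CPM per kb in ST2-low, and the 10 genes, chosen as described, made up 91.7% to 93.8% of it in every library. Ets1 took 46.0% ± 0.870 of the pool in ST2KO, 41.7% ± 0.280 in ST2-high and 43.2% ± 0.450 in ST2-low, although its own level was lower in ST2KO. Elf1 and Ets2 held smaller shares in ST2KO, with Elf1 at 8.18% in ST2KO, 14.5% in ST2-high and 12.6% in ST2-low, and Ets2 at 3.17% in ST2KO, 9.60% in ST2-high and 9.92% in ST2-low. In bulk RNA, fewer cells that carry a transcript and less of it per cell cannot be told apart.

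**Figure D4:**
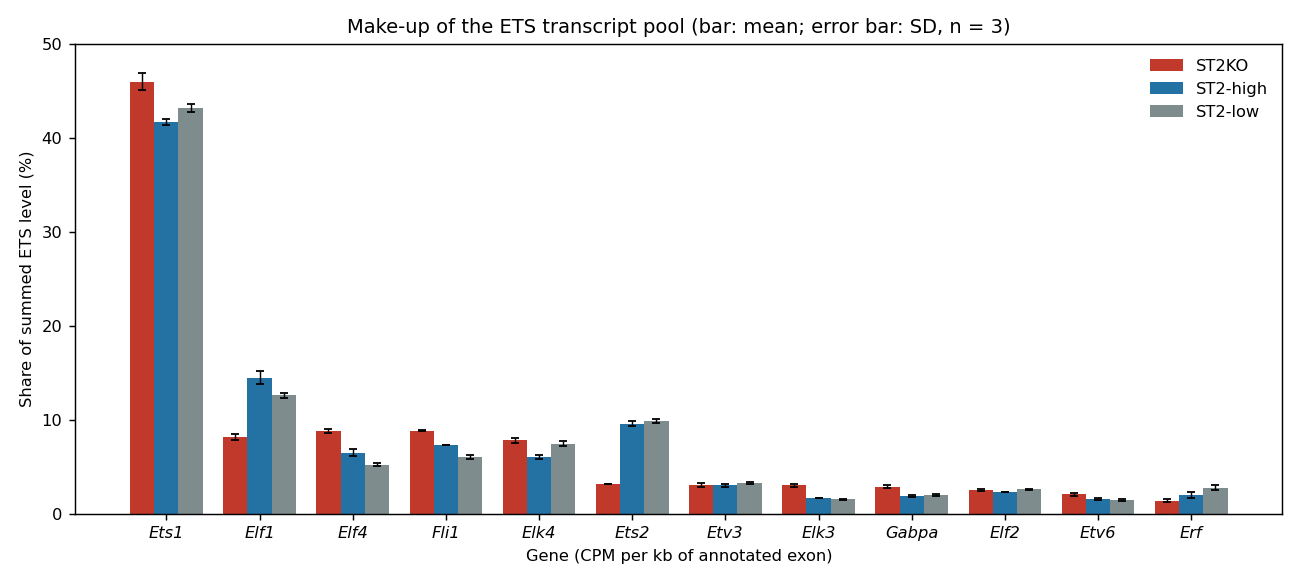
Share of the summed ETS level (vertical axis, percent of the CPM per kb of all ETS genes with a row) taken by the 12 most abundant ETS transcripts in ST2KO, ST2-high and ST2-low; bars are means and error bars SD, n = 3. Ets1 holds 46.0% in ST2KO, 41.7% in ST2-high and 43.2% in ST2-low, and the ST2KO bars of Elf1 and Ets2 are shorter than both wild-type bars.

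Among the other ETS genes, 17 were listed, 16 had a row and 8 passed the filter on low counts. In ST2KO against ST2-high 7 of the 8 changed (2 higher, 5 lower), in ST2KO against ST2-low 6 (1 higher, 5 lower) and in ST2-high against ST2-low 1 (lower). These are 87.5%, 75% and 12.5% of the 8, where 64.5%, 62.3% and 26.1% of all tested genes passed. In ST2KO against ST2-low the split was 0 higher and 5 lower with the size factors of DESeq2 and 2 higher and 5 lower with upper-quartile factors. Over all tested genes it went from 4030 higher and 3577 lower to 3729 and 3829 with the former and 4648 and 3124 with the latter. The median log2 fold change of the 8 genes was -0.40 in ST2KO against ST2-high, -0.45 in ST2KO against ST2-low and -0.27 in ST2-high against ST2-low. Etv3 and Erf, repressors of the family without a pointed domain, both fell in ST2KO. Etv3 had 170.1, 163 and 171 CPM in ST2KO, 221, 221 and 238 CPM in ST2-high, and 231, 237 and 238 CPM in ST2-low, with a log2 fold change of -0.43 ± 0.05 in ST2KO against ST2-high (edgeR, adjusted p = 1.22e-08). Erf, which leaves the nucleus when ERK phosphorylates it, had 30.9, 25.7 and 23.7 CPM in ST2KO, 43.2, 60.6 and 54.1 CPM in ST2-high, and 63.1, 72.6 and 76.2 CPM in ST2-low. It fell 1.91-fold in ST2KO against ST2-high (edgeR, adjusted p = 9.52e-05) and 2.58-fold against ST2-low (edgeR, adjusted p = 3.53e-06), and was the 1 gene of the list that was lower in ST2-high than in ST2-low (log2 fold change -0.44 ± 0.13, edgeR, adjusted p = 0.0279). Without ST2-high replicate 3, without ST2-low replicate 2 or without ST2-low replicate 3 that count was 0, and without ST2-high replicate 2 it was 2.

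Elk1, the ternary complex factor related to Elk3 and Elk4, was higher in ST2KO than in ST2-high. Elk1 averaged 19.3 ± 0.815 CPM in ST2KO and 14.9 ± 0.517 CPM in ST2-high, a rise of 0.38 ± 0.10 on the log2 scale (edgeR, adjusted p = 0.00132). It averaged 17.2 ± 1.25 CPM in ST2-low, and the difference of 0.18 ± 0.10 between ST2KO and ST2-low did not pass (edgeR, adjusted p = 0.118). Etv5, a factor of the Pea3 group, averaged 13.0 ± 0.745 CPM in ST2KO, 10.3 ± 0.988 CPM in ST2-high and 10.7 ± 0.274 CPM in ST2-low, and rose against both (edgeR, adjusted p = 0.0128 and 0.0370). The call of Etv5 was lost in 2 of 18 alternatives against ST2-high, without ST2KO replicate 1 and without ST2-high replicate 3, and in 10 of 18 against ST2-low.

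Spi1, Spib and Spic, known from myeloid cells, B cells and red pulp macrophages of the spleen, were at 15.3 CPM or less in every library and lowest on average in ST2KO. Spic had 0.760, 0.585 and 0.818 CPM in ST2KO, 2.69, 4.06 and 2.90 CPM in ST2-high, and 4.70, 4.03 and 5.28 CPM in ST2-low, and Spi1, found in the files under its older symbol, averaged 1.39 ± 0.504 CPM in ST2KO, 2.83 ± 0.225 CPM in ST2-high and 3.58 ± 0.364 CPM in ST2-low. Spic fell by 2.13 ± 0.28 on the log2 scale in ST2KO against ST2-high (edgeR, adjusted p = 9.85e-08) and Spi1 by 0.92 ± 0.26 (edgeR, adjusted p = 0.00278). Markers of some other spleen cells were also lower in ST2KO. Over all tested genes 64.5% passed in ST2KO against ST2-high, 32.6% lower, and 62.3% passed in ST2KO against ST2-low, 29.3% lower. Of 12 myeloid and dendritic genes (among them Lyz2, Csf1r, Mpeg1 and Vcam1), 11 fell and 0 rose in ST2KO against ST2-high and 10 fell against ST2-low, and their summed level was 44.5 to 58.8 CPM in ST2KO, 160.0 to 162 CPM in ST2-high and 153 to 194 CPM in ST2-low. The near sums of the wild-type groups hide opposite differences. In ST2-high against ST2-low, Zbtb46 and Itgam were higher and Csf1r, Vcam1 and Adgre1 lower. These are 41.7% of the 12, where 26.1% of all tested genes passed. The calls of Csf1r and Adgre1 there were each lost in 3 of 18 alternatives. Zbtb46 averaged 19.0 CPM in ST2-high and 3.77 CPM in ST2-low. Of 10 B cell genes, 6 fell and 0 rose in ST2KO against ST2-high and 5 fell against ST2-low, with summed levels of 103 to 132 CPM in ST2KO, 132 to 164 CPM in ST2-high and 114 to 172 CPM in ST2-low. None of these 22 genes was at 0 in any group. Against ST2-high the calls of the B cell genes Cd79a, Cd79b and Pax5 were lost in 1, 5 and 3 of 18 alternatives. Against ST2-low those of Cd79a and Pax5 were lost in 2 and 5. Of 4 neutrophil genes, 2 fell and 0 rose in ST2KO against ST2-high, with summed levels of 2.0 to 3.33 CPM in ST2KO, 7.48 to 13.5 CPM in ST2-high and 5.78 to 19.9 CPM in ST2-low. The call of S100a8 in this comparison was lost in 6 of 17 alternatives. In the same comparison 0 of 4 tested NK cell genes and 0 of 2 CD8 T cell genes passed, and of 5 tested erythroid and platelet genes 1 rose and 0 fell, with summed levels of 34.5 to 52.1 CPM in ST2KO, 29.6 to 35.6 CPM in ST2-high and 38.2 to 41.8 CPM in ST2-low. Klra8 of the NK cell list and Hba-a1 of the erythroid list were at 0 in every group. All 5 plasma cell genes, of which Xbp1 and Prdm1 are also expressed by Tregs, fell in ST2KO against ST2-high, with summed levels of 167 to 179 CPM in ST2KO, 367 to 414 CPM in ST2-high and 312 to 364 CPM in ST2-low. Against ST2-low 4 of them fell and Prdm1 rose 1.42-fold (edgeR, adjusted p = 1.26e-07). The call of the plasma cell gene Jchain was lost in 9 of 18 alternatives in each ST2KO comparison. The part of such cells in the levels of Spi1, Spib, Spic and the 10 genes was not tested. Of 6 Treg genes, 5 fell and 1 rose in ST2KO against ST2-high (summed level 3363 to 3482 CPM in ST2KO, 5689 to 6157 CPM in ST2-high and 5197 to 5380 CPM in ST2-low). Against ST2-low 3 fell, Il2ra and Ikzf2 rose, and Foxp3 did not pass.

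Partners and regulators of ETS proteins were followed with a list of 19 genes, all tested. In ST2KO against ST2-high 6 rose and 7 fell, in ST2KO against ST2-low 7 rose and 6 fell, and in ST2-high against ST2-low 4 were higher and 2 lower, or 68.4%, 68.4% and 31.6% of the 19, where 64.5%, 62.3% and 26.1% of all tested genes passed. With upper-quartile factors 9 rose and 3 fell in ST2KO against ST2-high and 11 rose and 5 fell in ST2KO against ST2-low. These factors also moved the split over all tested genes. It went from 3892 higher and 3984 lower to 4582 and 3443 in ST2KO against ST2-high. In ST2KO against ST2-low it went from 4030 and 3577 to 4648 and 3124. The medians of the 19 genes lay near 0, at 0.01, 0.05 and 0.00 on the log2 scale. Runx3, a Runx factor of T cells, averaged 56.0 ± 4.40 CPM in ST2KO, 126 ± 10.2 CPM in ST2-high and 77.4 ± 2.85 CPM in ST2-low, and fell 2.25-fold in ST2KO against ST2-high (edgeR, adjusted p = 7.9e-16). Runx1, the classical partner of Ets1, averaged 177 ± 6.87 CPM in ST2KO, 176 ± 1.45 CPM in ST2-high and 169.8 ± 7.03 CPM in ST2-low and passed in no comparison (edgeR, adjusted p = 0.301 to 0.856). Srf itself averaged 79.2 ± 0.748 CPM in ST2KO, 88.8 ± 1.59 CPM in ST2-high and 72.7 ± 6.70 CPM in ST2-low, so that it was lower in ST2KO than in ST2-high (log2 fold change -0.16 ± 0.06, edgeR, adjusted p = 0.0203) and ST2-high exceeded ST2-low (0.29 ± 0.06, edgeR, adjusted p = 6e-04). The first of these calls of Srf was lost with upper-quartile factors (log2 fold change -0.09, edgeR, adjusted p = 0.227), without ST2KO replicate 1 and without ST2-high replicate 2. Its actin-regulated coactivators Mkl1 and Mkl2 rose in ST2KO against ST2-high, by 0.40 ± 0.05 and 0.39 ± 0.07 on the log2 scale (edgeR, adjusted p = 1.67e-07 and 5.28e-06). Det1 and Rfwd2 (Cop1), parts of a ubiquitin ligase that degrades ETS proteins, rose as well, Det1 by 1.32 ± 0.16 and Rfwd2 by 0.31 ± 0.07 (edgeR, adjusted p = 1.94e-08 and 0.000458).

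Genes reported to be bound or regulated by ETS factors in T cells changed in both directions. Of 16, 6 rose and 8 fell in ST2KO against ST2-high, 6 rose and 6 fell in ST2KO against ST2-low, and 5 were higher and 5 lower in ST2-high against ST2-low, with medians of -0.12, 0.04 and 0.01 on the log2 scale. These are 87.5%, 75% and 62.5% of the 16, where 64.5%, 62.3% and 26.1% of all tested genes passed. Since the list was drawn up with earlier results of these data known, nothing is read from these shares. With upper-quartile factors 8 rose and 5 fell in ST2KO against ST2-low, and with the size factors of DESeq2 3 were higher and 6 lower in ST2-high against ST2-low. Over all tested genes the former went from 4030 higher and 3577 lower to 4648 and 3124. The latter went from 1872 and 1317 to 1691 and 1612. Ccr7, a chemokine receptor that guides cells to lymph nodes, had the largest change of the 16, to 180.2 ± 5.51 CPM in ST2KO, against 1382 ± 90.8 CPM in ST2-high and 2004 ± 50.7 CPM in ST2-low (7.66-fold and 11.1-fold, edgeR, adjusted p = 7.92e-27 and 3.18e-28). Klf4, which Elf4 activates in mouse CD8 T cells, averaged 51.3 ± 7.73 CPM in ST2KO, 137 ± 8.15 CPM in ST2-high and 137 ± 6.52 CPM in ST2-low, and fell 2.66-fold against ST2-high (edgeR, adjusted p = 1.7e-13), while Elf4 itself overlapped between these groups. Klf2 and S1pr1, a quiescence factor and the egress receptor it controls, also fell in ST2KO against ST2-high, by 0.61 ± 0.05 and 0.87 ± 0.06 on the log2 scale (edgeR, adjusted p = 4.66e-11 and 1.79e-13). Bcl2, the survival gene, rose 1.79-fold in ST2KO against ST2-high (edgeR, adjusted p = 3.53e-14) and was lower in ST2-high than in ST2-low (log2 fold change -0.72 ± 0.05, edgeR, adjusted p = 9.48e-12). Foxp3 fell by 0.40 ± 0.06 in ST2KO against ST2-high (edgeR, adjusted p = 3.56e-07) and did not pass against ST2-low (-0.10 ± 0.06, edgeR, adjusted p = 0.117). Il7r, a target of Gabpa in T cells, was 0.49 ± 0.05 higher on the log2 scale in ST2KO than in ST2-low by edgeR (adjusted p = 1.75e-09), and differed by 0.04 ± 0.05 between ST2KO and ST2-high.

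Immediate early genes driven by Srf and the Elk factors included both kinds of change in ST2KO. Of 15 tested (of 16 listed), 4 rose and 10 fell in ST2KO against ST2-high, 3 rose and 9 fell in ST2KO against ST2-low, and 4 were higher and 4 lower in ST2-high against ST2-low, with medians of -0.40, -0.15 and 0.02 on the log2 scale. These are 93.3%, 80% and 53.3% of the 15, where 64.5%, 62.3% and 26.1% of all tested genes passed. This list too was drawn up with earlier results known, so nothing is read from its shares. The call of Fos as higher in ST2KO than in ST2-high (log2 fold change 0.14) was lost in 10 of 18 alternatives. In ST2KO against ST2-low those of Dusp1 and Zfp36 were lost in 4 and 2. In ST2-high against ST2-low those of Zfp36 and Mcl1 were lost in 11 and 7. With upper-quartile factors 5 rose and 7 fell in ST2KO against ST2-low. The split over all tested genes went from 4030 higher and 3577 lower to 4648 and 3124 with these factors. Nr4a1, an orphan receptor induced by antigen signals, averaged 329.5 ± 10.9 CPM in ST2KO, 1166 ± 78.6 CPM in ST2-high and 1091 ± 78.3 CPM in ST2-low and fell 3.54-fold in ST2KO against ST2-high (edgeR, adjusted p = 1.81e-21). Dusp5, an ERK phosphatase, fell 3.01-fold in the same comparison (edgeR, adjusted p = 2.31e-15), and Ier2 fell 1.57-fold (edgeR, adjusted p = 2.02e-12). Egr1 and Egr2 did the reverse, with 129.7 ± 13.2 and 24.1 ± 1.17 CPM in ST2KO, 73.8 ± 4.43 and 13.2 ± 0.800 CPM in ST2-high, and 90.4 ± 2.32 and 17.2 ± 0.205 CPM in ST2-low. They rose by 0.82 ± 0.06 and 0.85 ± 0.10 on the log2 scale in ST2KO against ST2-high (edgeR, adjusted p = 2.56e-12 and 6.46e-09).

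Nuclear genes linked to GABP and to mitochondria were followed with a list of 14 genes. Of 14, 3 rose and 6 fell in ST2KO against ST2-high, 3 rose and 3 fell in ST2KO against ST2-low, and 1 was higher and 1 lower in ST2-high against ST2-low, with medians of -0.21, -0.05 and 0.01 on the log2 scale. These are 64.3%, 42.9% and 14.3% of the 14, where 64.5%, 62.3% and 26.1% of all tested genes passed. In ST2-high against ST2-low, 5 passed without ST2-high replicate 3, and 1 passed without ST2-high replicate 1, ST2-high replicate 2, ST2-low replicate 1 or ST2-low replicate 3. Tfb2m, a factor of mitochondrial transcription, averaged 16.9 ± 0.199 CPM in ST2KO, 27.5 ± 0.414 CPM in ST2-high and 36.2 ± 1.76 CPM in ST2-low and fell in ST2KO against both (edgeR, adjusted p = 1.38e-08 and 8.06e-13). Nrf1 and Polrmt, the nuclear respiratory factor and the mitochondrial RNA polymerase, rose in ST2KO against ST2-high by 0.62 ± 0.07 and 0.73 ± 0.09 on the log2 scale (edgeR, adjusted p = 1.95e-09 and 1.58e-08). Atp5b, a subunit of ATP synthase, fell by 0.37 ± 0.06 (edgeR, adjusted p = 1.11e-06).

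The likeness of patterns was described with Pearson's r of log2(CPM + 0.5) over the 9 libraries. All genes share the depth and the 3 groups of these libraries, so that r mostly restates the group levels. Among the 10 genes, Ets2 was most like Elf1 (r = 0.977), Elf2 (r = 0.963) and Ets1 (r = 0.963), and Elk3 ran against Elf2 (r = -0.949). Elf4 was like Fli1 (r = 0.797) and ran against Elk4 (r = -0.884). Outside the family, the tested gene most like Ets2 was Arhgef10 (r = 0.999), followed by Aff1 and Tgif2 (r = 0.998 each), and Aff1 averaged 268 ± 8.60 CPM in ST2KO, 971 ± 32.9 CPM in ST2-high and 961 ± 13.9 CPM in ST2-low. The nearest to Elf1 was Zfp53 (r = 0.998), to Ets1 Ndfip2 (r = 0.992), to Elf2 Rnf103 (r = 0.996), to Elk3 Zfp709 (r = 0.993) and to Elk4 Tbc1d4 (r = 0.983). Pold3 was nearest to Elf4 (r = 0.984), Gcnt1 to Fli1 (r = 0.988), Nudt1 to Gabpa (r = 0.981) and Zcchc3 to Etv6 (r = 0.965). Gcnt1 followed the order of Fli1 with wider steps, at 8.37 ± 1.34 CPM in ST2KO, 16.9 ± 1.73 CPM in ST2-high and 3.46 ± 1.12 CPM in ST2-low.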

How the data were processed

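RNA of sorted mouse spleen Tregs was sequenced in 9 samples, 3 per group, grouped by the genotype labels. The deposited files hold the authors' whole-number counts per gene symbol, not normalized, judged from the file headers and values. The sources used here do not give the aligner, genome build, annotation, counting tool or strand setting. Rows whose symbol had become a calendar date (27 rows, 0.182% to 0.206% of counts) were left out, and the ribosomal precursor Rn45s took 12.1% to 16.9% of counts.

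Counts were scaled with TMM and filtered by filterByExpr (minimum count 10, minimum total 15), which left 12219 genes. All 9 samples entered 1 robust quasi-likelihood fit in edgeR (version 4.0.16, under R 4.3.3, with limma 3.58.1) with a coefficient for each group, and p-values were adjusted by Benjamini-Hochberg over every tested gene, with a threshold of 0.05. A gene is said to have passed, risen or fallen on that basis. The script was tested on simulated data before use. Of the calls there, 6.15% fell on unchanged genes in ST2KO against ST2-high, 7.25% in ST2KO against ST2-low and 7.57% in ST2-high against ST2-low. Few genes were changed in the simulation, so it does not check the scaling where most genes pass. Levels are CPM with TMM factors; deeper libraries give more precise values, and counting error is only part of the spread between libraries. Symbols without a row were looked up by their RefSeq synonyms, which found Spi1 under Sfpi1.

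The members and lists were chosen with earlier results of these data known. Named genes are the 10 ETS genes, other ETS genes of at least 1 CPM in a group and the genes most like each member. From each list no more than 4 genes per comparison were taken by their adjusted p, and a part of these is printed. Runx1, Mkl2, Rfwd2, Egr2 and Il7r were named outside that rule. Il1rl1, Foxp3, cell type markers and genes that share exon bases with a member were named as well. Alternatives were the Wald test of DESeq2 (version 1.42.0) and its size factors, upper-quartile factors, voom in limma, no filter, 5 CPM in 3 samples, only the 6 samples compared, a replicate block, no Rn45s and each sample left out.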

Additional observations from a re-analysis of the deposited data

How the results depend on the processing

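Across 18 alternatives, 314 of 324 counts of genes past the threshold stayed within 1.5 times the reported count, and none of the called fold changes of the 10 ETS genes changed direction. The number of the 10 ETS genes past the threshold was 6 to 7 in ST2KO against ST2-high, 7 to 10 in ST2KO against ST2-low and 4 to 6 in ST2-high against ST2-low. The counts that moved were those of ST2-high against ST2-low. The other ETS genes past the threshold there numbered 2 with limma-voom, and 0 to 2 when 1 library was left out, against 1 as reported. The nuclear mitochondrial genes numbered 1 to 5 when 1 library was left out, against 2 as reported. The cause was not tested. Of the 540 fold changes of the 10 genes, 506 stayed on the same side of the threshold, 24 lost the call and 10 gained it. The losses were those of Gabpa and Fli1 in ST2KO against ST2-low, of Etv6 in ST2-high against ST2-low and of Fli1 in ST2KO against ST2-high. With a filter of 5 CPM the genes that passed in ST2-high against ST2-low were 1456 higher and 1666 lower, against 1872 higher and 1317 lower as reported.

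Deviations from the group mean correlated by -0.063 to 0.098 between same-numbered libraries and by -0.114 to 0.073 between other libraries of different groups. With 3 libraries per group, such values cannot show whether same-numbered libraries belong together, and the labels do not say. With the replicate number as a block, 6, 9 and 5 of the 10 ETS genes passed in the 3 comparisons, as without it, and 7885, 7622 and 3210 of all genes did, against 7876, 7607 and 3189.

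Limits are the 3 libraries per group, whose origin is not given, and the low counts of Spi1, Spic and Etv1, with 10 to 105 counts per library for Spic.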
